A study of Mus musculus with 13 samples.

Results

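The genes described here are 9 regulators and products of bone-forming and maturing cartilage cells: the transcription factor genes Runx2, Runx3, Sp7 and Mef2c, the ligand and receptor genes Pthlh and Pth1r, and the matrix and mineral genes Alpl, Ifitm5 and Spp1. They were taken by gene symbol from a table of 12880 genes, and 7 of the 9 were among its listed genes. Runx2 and Runx3 were not among them and are not analysed here, so nothing is said of their level. The table covers 13 RNA-seq libraries of whole mouse limb buds, each from the limb buds of a separate embryo, in 4 groups. At embryonic stage E11.5 there were 3 controls with 1 floxed and 1 deleted Sox9 allele (Sox9fl/-) and 4 Sox9null samples (Sox9-/-). At E12.5 there were 3 controls with both alleles floxed (Sox9fl/fl) and 3 Sox9cKO samples (Sox9fl/flPrx1CreER). Prx1CreER is a Cre recombinase that needs an inducing drug. It is driven by a Prrx1 enhancer active in limb mesenchyme, and is used to spare muscle, blood, vessels and ectoderm. Where it acted in these embryos was not measured here. The inducing treatment, the Cre behind the null allele and the limbs taken are not stated in the labels. Age therefore comes with a different Sox9 genotype in controls, and with a different allele and Cre in mutants, which cannot be told apart from age. Values are normalized RPKM, read counts per length of gene and depth of library, so levels of different genes can be set side by side.

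Long bones form on a cartilage template. SOX9 drives mesenchymal cells into cartilage, and the chondrocytes later stop dividing and enlarge, a step called hypertrophy, while cells of the surrounding perichondrium become osteoblasts. RUNX2 and RUNX3 and the MADS-box factor MEF2C promote hypertrophy, RUNX2 starts the osteoblast programme and SP7 (osterix) acts after it. PTHrP, the product of Pthlh, acts on the receptor encoded by Pth1r to delay hypertrophy, in a loop with Indian hedgehog. Alkaline phosphatase (Alpl), osteopontin (Spp1) and the osteoblast membrane protein encoded by Ifitm5 belong to mineralizing tissue. Limb buds of these stages come before bone forms.

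Relative library depth, read from the steps between low values, ranged from 0.815 to 1.24, and the absolute depth is unknown. At E11.5 the libraries formed 2 sets by their overall likeness, one of 4 (controls 1 and 3 with Sox9null 3 and 4) and one of 3 (control 2 with Sox9null 1 and 2). Sox9 had 35.8 to 49.3 RPKM in the E11.5 controls and 20.6 to 25.7 in Sox9null, and 35.2 to 37.5 in the E12.5 controls and 28.7 to 35.1 in Sox9cKO. Values over the whole gene can include exons that were not deleted. Y-linked genes were read in E11.5 control 1, Sox9null 3, the 3 E12.5 controls and Sox9cKO 3, and were near 0 in the other libraries. A list of 18 limb mesenchyme genes had 17 listed members, with a summed level of 634.2 to 748.0 RPKM over the libraries and no listed member at 0. Of the defining genes of mature osteoblasts, Ibsp, Bglap, Dmp1 and Phex were not among the listed genes. Of those of hypertrophic chondrocytes, Col10a1, Ihh and Mmp13 were not listed either.

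Ordered by the mean over the 13 libraries, Pth1r was highest at 29.6 RPKM, above 81.6% of the listed genes. Mef2c followed at 11.9, Spp1 at 7.45, Ifitm5 at 6.18, Sp7 at 3.37, Alpl at 3.32 and Pthlh at 2.57, the last above 0.551% of the listed genes. Sp7 and Alpl, neighbours in that order, overlapped in their values over the libraries. In the authors' deposited table the adjusted p over the 4 groups was 2.24e-03 for Mef2c, 8.24e-03 for Pthlh, 1.11e-02 for Sp7, 1.92e-02 for Ifitm5, 2.66e-02 for Pth1r, 1.05e-01 for Spp1 and 1.87e-01 for Alpl.

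**Figure D1:**
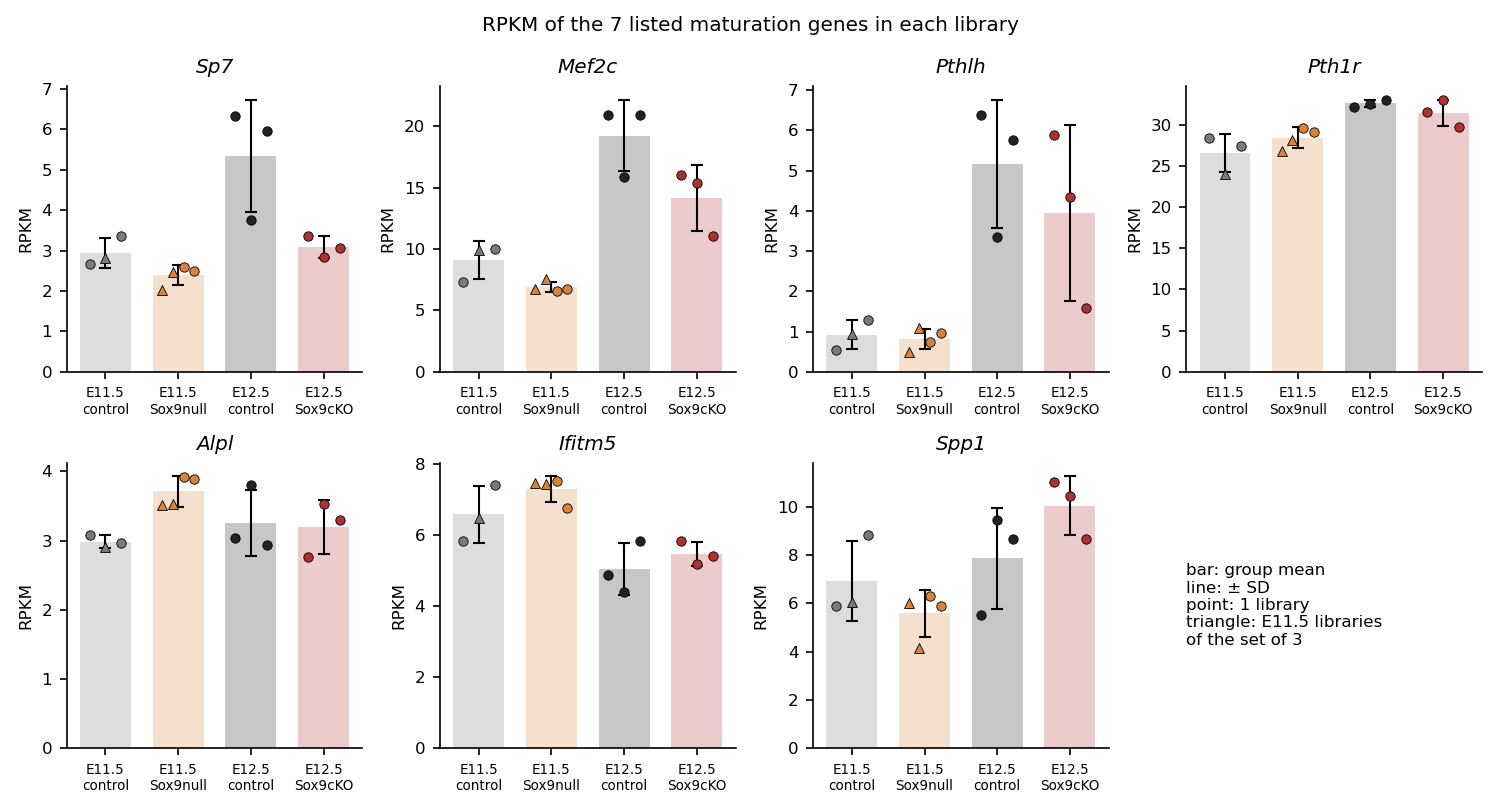
RPKM (y axes) of the 7 listed genes in each library of the 4 groups (x axes). Bars are group means, lines the SD, points single libraries and triangles the E11.5 set of 3. Mef2c and Pthlh were higher at E12.5 than at E11.5 in every library of the same genotype class, and Sp7 was highest in E12.5 controls 1 and 3.

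Between E11.5 and E12.5 Mef2c and Pthlh rose in both genotypes. Mef2c, Pthlh, Sp7 and Pth1r were higher and Ifitm5 lower at E12.5 in controls, and Mef2c, Pthlh and Spp1 were higher and Ifitm5 lower in mutants. In the controls 4 of the 7 members rose and 1 fell, where 21.7% of the 12880 genes were called, 16.5% higher and 5.19% lower. In the mutants 3 rose and 1 fell, where 19.7% were called, 14.5% higher and 5.23% lower. Calls are from limma on log2(RPKM + 1) at a Benjamini-Hochberg adjusted p under 0.05 over all listed genes. The authors kept genes with a group mean of at least 3 RPKM. Pthlh and Sp7 reached that only at E12.5, so their rises, and the counts that hold them, are partly set by this rule. Of the genes called between ages, 76.1% were higher in controls and 73.5% in mutants, and 55.4% and 55.6% after quantile normalization between libraries. Without E12.5 control 1 the count of members called in controls was 3 in place of 5, and without Sox9cKO 1 or Sox9cKO 2 that in mutants was 1 in place of 4.

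Between mutants and controls no member passed the test at either age. At E11.5 the count was 0 of 7, where 0.0543% of all genes were called, and 2 members had an unadjusted p under 0.05. At E12.5 the count was 0 of 7, where 0.194% were called, again with 2 members at an unadjusted p under 0.05. For the difference between the effects at the 2 ages the count was 0 of 7, where 0.0311% were called, with 1 member at an unadjusted p under 0.05. These are limma results, and limma without its variance trend and robust option also called 0 in each. The shares of all genes are at the adjusted threshold. The share at an unadjusted p under 0.05 was not counted, so the unadjusted counts of members have no background here. Sp7 came nearest, with a log2 difference of -0.61 at E12.5 and an interval that lay below 0.

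**Figure D2:**
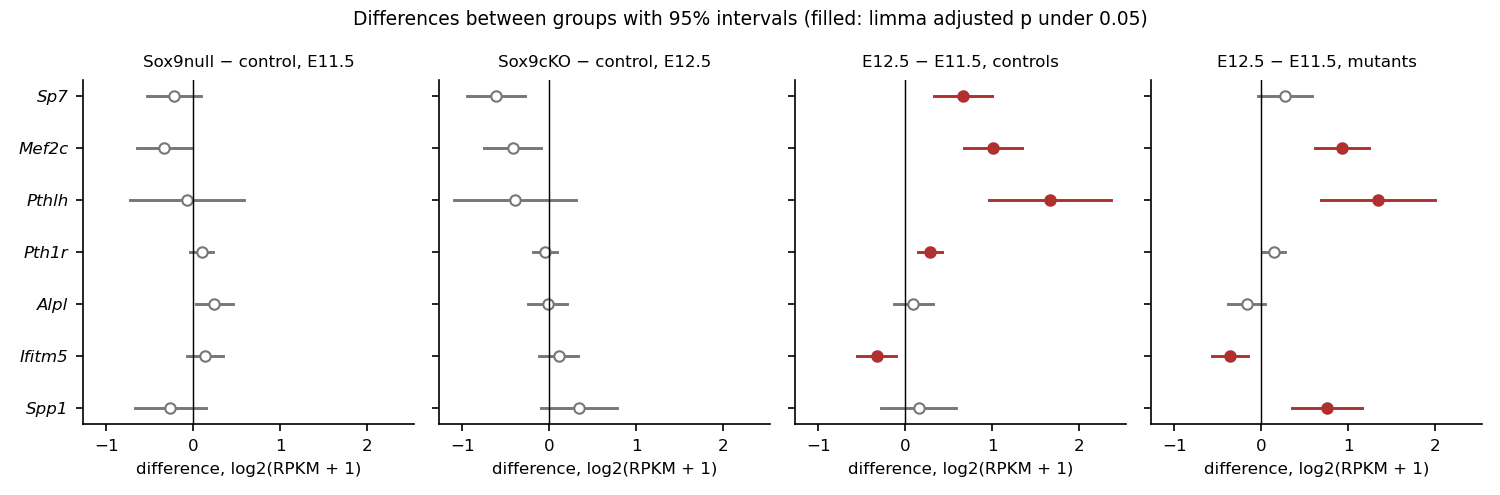
Differences in log2(RPKM + 1) (x axes) for the 7 genes (rows) in 4 comparisons (panels), with 95% intervals. Filled red points passed the limma adjusted threshold: none in the panels of mutants against controls, 5 between ages in controls and 4 between ages in mutants.

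Sp7 (ENSMUSG00000060284, chromosome 15, 102356606 to 102367182, minus strand, mm10) encodes osterix, a zinc finger factor that osteoblasts need and that perichondral and prehypertrophic cells also express. Its level was 2.67, 2.82 and 3.37 RPKM in the E11.5 controls. The Sox9null libraries had 2.04, 2.47, 2.59 and 2.49, each below the lowest control. A day later it was 6.33, 3.76 and 5.96 RPKM in controls, against 3.37, 2.84 and 3.06 in Sox9cKO. Here too each mutant lay below each control, and control 2 stood nearer to the mutants than to controls 1 and 3. Over all genes, 0.543% lay lower without overlap at both ages.

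Group means of Sp7 were 2.95 ± 0.370 (SD, n = 3) and 2.40 ± 0.245 (SD, n = 4) at E11.5 and 5.35 ± 1.39 (SD, n = 3) and 3.09 ± 0.265 (SD, n = 3) at E12.5. The E12.5 difference of -0.61 (SE 0.151, 95% interval -0.94 to -0.28) had a limma adjusted p of 0.204, and 0.0160 to 0.912 over the alternatives. It passed the threshold in 1 of them, without E12.5 control 2, at -0.81. Against Sox9cKO 3 alone, the mutant whose Y-linked genes matched the controls, the difference was -0.62. The E11.5 difference was -0.22 (SE 0.142, limma adjusted p = 1.00), and -0.18 within the set of 4 and -0.23 within the set of 3. Whether the effects differ between ages was tested directly, with a difference of -0.39 (95% interval -0.85 to 0.06, limma adjusted p = 1.00). The mean of both effects, a comparison added after the data were seen, was -0.41 (SE 0.104, limma adjusted p = 0.178). In it 0 of 7 members and 0.505% of all genes were called, and Sp7 passed without E12.5 control 2 (limma adjusted p = 0.0146). At an unadjusted limma p under 0.05 there were 2 members, and the share of all genes at that threshold was not counted.

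With age, Sp7 rose in controls by 0.66 (SE 0.151, limma adjusted p = 0.0102), and without E12.5 control 1 the adjusted p was 0.0527. Sp7 reached the minimum of 3 RPKM in a group mean only at E12.5, so a rise was partly set by that rule. In mutants the difference was 0.27 (SE 0.142, limma adjusted p = 0.191), although the lowest Sox9cKO library was above the highest Sox9null library. That the rise passed in controls and not in mutants does not show a difference between them, since the test of it is the one above.

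The 3 genes whose log2 values over the 13 libraries were most like those of Sp7 were Susd5 (Pearson r 0.973), Cytl1 (0.972) and Matn1 (0.956). Cytl1 encodes a small secreted cartilage protein and Matn1 the cartilage matrix protein matrilin-1, and both belong to the early cartilage list. Matn1 had mean levels of 0.481, 0.0475, 13.9 and 0.535 RPKM in the E11.5 control, Sox9null, E12.5 control and Sox9cKO groups, so it shares with Sp7 the high E12.5 control group over a far wider range. Susd5, Cytl1 and Matn1 each reached the minimum of 3 RPKM only in the E12.5 controls. That they share this high group with Sp7 is thus partly set by that rule. These coefficients describe libraries that share age and genotype, and no p is given.

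Early cartilage genes were read beside Sp7. Of 18 listed genes of that list, 14 rose with age in controls, and 10 rose and 1 fell with age in mutants, by the limma test. Among all genes 16.5% rose in controls, and 14.5% rose and 5.23% fell in mutants. Against controls, 3 fell in Sox9null and 5 fell in Sox9cKO, where 0.0543% and 0.194% of all genes were called in either direction. Cytl1 and Matn1 of this list reached the minimum of 3 RPKM only in the E12.5 controls. The counts with that group, and its sums, are thus partly set by this rule. Their summed level was 165.8 to 235.6 RPKM in the E11.5 controls and 107.4 to 131.4 in Sox9null. It was 344.5 to 461.0 RPKM in the E12.5 controls and 172.2 to 246.8 in Sox9cKO. The library with the lowest sum of its group also had the lowest Sp7 in the E11.5 controls (control 1), the E12.5 controls (control 2) and Sox9cKO (Sox9cKO 2). In Sox9null the lowest sum came with the highest Sp7, in Sox9null 3. In Sox9null 1 and 2, 2 and 1 of the 18 genes were at 0. The part of the cartilage content in the Sp7 values was not tested, and in whole limb buds fewer cells of a type and less RNA per cell cannot be told apart.

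Mef2c (ENSMUSG00000005583, chromosome 13, 83504034 to 83667080, plus strand) encodes a factor that drives chondrocyte hypertrophy and that muscle and vessel cells also use. In E11.5 controls Mef2c was at 7.28, 9.91 and 10.0 RPKM, and in Sox9null at 6.75, 7.55, 6.59 and 6.78. Control 1 lay within the range of the mutants. By E12.5 it had reached 20.9, 15.9 and 20.9 RPKM in controls, and 16.04, 15.4 and 11.0 in Sox9cKO. The groups overlapped through control 2, and Sox9cKO 3 was lowest.

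With age Mef2c rose by 1.01 (SE 0.152, limma adjusted p = 0.00140) in controls and by 0.92 (SE 0.142, limma adjusted p = 0.00302) in mutants, from 9.07 ± 1.55 to 19.2 ± 2.92 RPKM (SD, n = 3 each) and from 6.92 ± 0.432 (SD, n = 4) to 14.2 ± 2.72 (SD, n = 3). Both rises held under all 22 alternatives. Mutants against controls differed by -0.34 (SE 0.142, limma adjusted p = 1.00) at E11.5, with -0.31 and -0.42 within the sets of 4 and 3. At E12.5 the difference was -0.42 (SE 0.152, limma adjusted p = 0.595, range over the alternatives 0.0498 to 1.00). It passed in 1 alternative, added after the data were seen, with terms for library set and sex (-0.64, limma adjusted p = 0.0498). Without Sox9cKO 3 it was -0.27. The mean of both effects was -0.38 (limma adjusted p = 0.268), and it passed with sex as a term (-0.50, limma adjusted p = 0.0345) and with library set and sex as terms (-0.50, limma adjusted p = 0.0168). Sex is nearly tied to genotype at E12.5: each control had Y-linked reads, and of the mutants only Sox9cKO 3 did. The sex terms thus lean in part on that library, the lowest in Mef2c, against which alone the E12.5 difference was -0.74. The effects at the 2 ages differed by -0.09 (95% interval -0.54 to 0.37).

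The genes most like Mef2c over the libraries were Tiam2 (r 0.990), Erg (0.987) and Tcp11l2 (0.987). Tcp11l2 reached the minimum of 3 RPKM in a group mean only at E12.5. Erg is an ETS factor gene of endothelial cells and of developing cartilage, and it rose with age by 1.20 in controls (limma adjusted p = 0.000697) and 0.92 in mutants (limma adjusted p = 0.00303). Of 9 listed MEF2 family and class IIa histone deacetylase genes besides Mef2c, 1 rose and none fell in either genotype. Among all genes 16.5% rose in controls and 14.5% in mutants. The gene that rose was Hdac9, whose product represses MEF2 factors, with a rise of 0.94 in controls (limma adjusted p = 0.00266) and 0.57 in mutants (limma adjusted p = 0.0248). Mef2a stood at 15.1 to 16.1 RPKM and Mef2d at 9.67 to 11.4 in the group means.

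Lists of other cell types that express Mef2c, and of tendon, were read beside it. Of 19 listed skeletal muscle genes, 17 rose and 1 fell in each genotype, and 8 more symbols of the list, Pax7 and Myf6 among them, were not listed. Over all genes 16.5% rose and 5.19% fell in controls, and 14.5% and 5.23% in mutants. Some muscle genes, such as Chrna1, Chrng, Myl1 and Tmem8c, were under 3 RPKM in every E11.5 library. They were kept through their E12.5 levels, so the muscle counts and sums between ages are partly set by the minimum of 3 RPKM. The muscle sum was 78.5 to 131.3 RPKM in the E11.5 controls, 88.0 to 134.9 in Sox9null, 303.1 to 405.5 in the E12.5 controls and 191.8 to 308.6 in Sox9cKO. E12.5 control 2 was lowest among its controls and Sox9cKO 3 lowest among the mutants, as for Mef2c. No listed muscle gene was at 0 in any library. Of 18 listed endothelial genes, 2 rose in controls and 4 in mutants, with medians of 0.11 and 0.08 on the log2 scale against 0.06 over all genes, and with sums of 243.5 to 262.1, 254.9 to 289.5, 286.0 to 294.8 and 294.9 to 314.1 RPKM in the same group order. Of 7 listed tendon genes, 6 rose in controls and 3 in mutants, and Sox9cKO 3 had the lowest sum at E12.5, 102.5 against 130.7 to 161.0 RPKM in the others. Control 2 had the lowest tendon sum of its group, at 137.6 RPKM. The macrophage and leukocyte sum, read with Spp1 below, was also lowest of its group in control 2 (95.5) and Sox9cKO 3 (78.6). The endothelial sum of control 2 was instead the highest of its group, at 294.8. The part of these cell types in the Mef2c values was not tested.

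**Figure D3:**
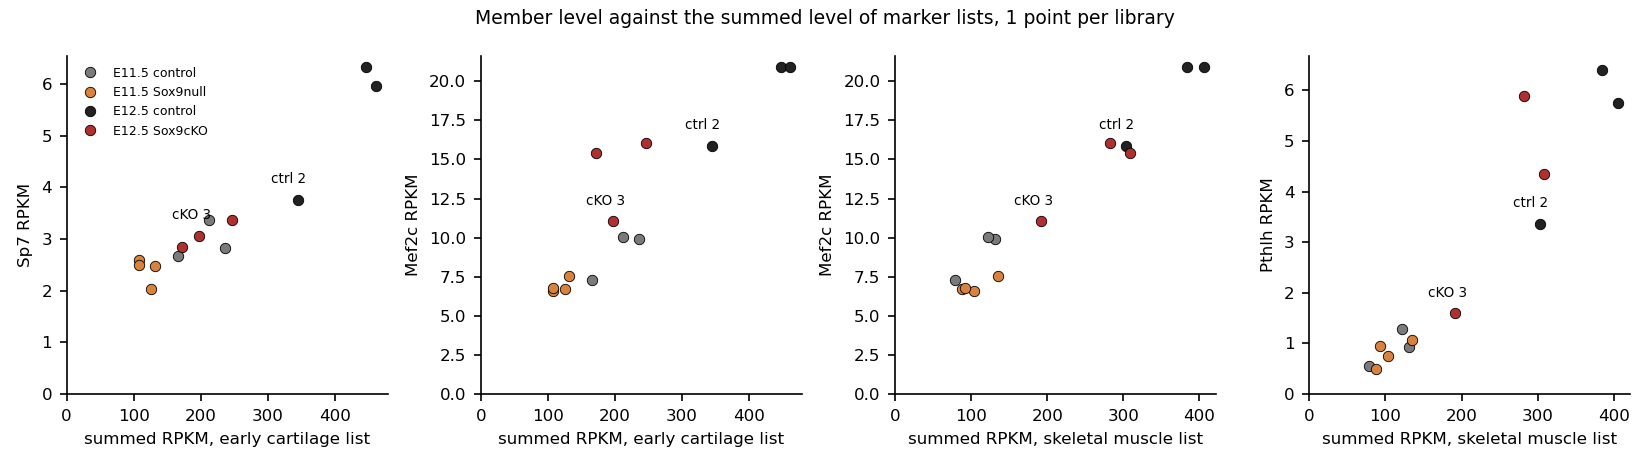
Level of Sp7, Mef2c or Pthlh (RPKM, y axes) against the summed RPKM of the early cartilage or the skeletal muscle list (x axes), 1 point per library, coloured by group. E12.5 control 2 and Sox9cKO 3 are marked: control 2 was the lowest E12.5 control on each axis, and Sox9cKO 3 had the lowest Mef2c, Pthlh and muscle sum at E12.5.

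The bases just before the start of the Mef2c gene model are shown because they can be read for the letters that MEF2 and RUNX proteins bind, beside those of Spp1 below. The window is chr13:83503784-83504033, plus strand, from the RefSeq promoter table of GRCm38.p6, and the capitals mark TATA box letters (TATAAA) on the other strand:
Mef2c: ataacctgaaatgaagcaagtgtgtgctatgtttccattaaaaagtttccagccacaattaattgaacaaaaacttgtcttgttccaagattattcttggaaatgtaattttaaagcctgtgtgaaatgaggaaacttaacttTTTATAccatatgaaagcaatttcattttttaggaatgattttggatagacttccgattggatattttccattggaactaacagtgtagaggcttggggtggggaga

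Pthlh (ENSMUSG00000048776, chromosome 6, 147252101 to 147264183, minus strand) encodes PTHrP, the ligand that holds chondrocytes in a dividing state. Levels were low at E11.5, with 0.548, 0.939 and 1.28 RPKM in controls. Sox9null had 0.488, 1.08, 0.746 and 0.957, and the groups overlapped. The E12.5 controls stood at 6.39, 3.36 and 5.75 RPKM. The Sox9cKO libraries had 5.90, 4.36 and 1.60, which span the controls from below to near the top. Sox9cKO 3 stood apart at 1.60, still above each E11.5 library.

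Pthlh had the largest rise with age among the members. Its group means reached the minimum of 3 RPKM only at E12.5, so a rise was partly set by that rule. It went from 0.924 ± 0.368 to 5.17 ± 1.60 RPKM in controls (SD, n = 3 each). This rise of 1.66 on the log2 scale (SE 0.321, limma adjusted p = 0.00441) was exceeded in size by 0.761% of the listed genes. In mutants it went from 0.817 ± 0.259 (SD, n = 4) to 3.95 ± 2.18 (SD, n = 3), a difference of 1.34 (SE 0.300, limma adjusted p = 0.0122). The call in controls held under all 22 alternatives. That in mutants was lost without Sox9cKO 1 (0.0585), without Sox9cKO 2 (0.0645) and after quantile normalization (0.0720), each a limma adjusted p. At these low levels the log2(RPKM + 1) scale understates a fold change. Mutants against controls differed by -0.08 (95% interval -0.73 to 0.58) at E11.5 and -0.39 (95% interval -1.09 to 0.31) at E12.5. The E12.5 value rested on Sox9cKO 3, since without it the difference was 0.02.

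Pth1r (ENSMUSG00000032492, chromosome 9, 110722085 to 110747145, minus strand) encodes the receptor for PTHrP. It was read at 28.3, 23.99 and 27.4 RPKM in the E11.5 controls and at 26.8, 28.1, 29.6 and 29.1 in Sox9null. The later controls were at 32.2, 32.5 and 33.0 RPKM, and Sox9cKO at 31.5, 32.9 and 29.8. Mutants and controls overlapped at both ages, and each E12.5 library lay above each E11.5 library of its genotype class. The rise in controls was 0.29 (SE 0.0633, limma adjusted p = 0.00845), a small change that held under all 22 alternatives and that 26.0% of the listed genes exceeded in size. In mutants the difference was 0.14 (SE 0.0592, limma adjusted p = 0.116). Mutants against controls differed by 0.10 (95% interval -0.03 to 0.23) at E11.5 and -0.05 (95% interval -0.19 to 0.09) at E12.5. The ligand and the receptor thus differed in range: the Pthlh group means spanned 0.817 to 5.17 RPKM and those of Pth1r 26.6 to 32.6. Its gene model overlaps that of Myl3 on the opposite strand, a muscle myosin gene, and reads of the overlap may be shared, since the use of strand is not known.

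Without overlap in either genotype, Sp7, Mef2c, Pthlh and Pth1r lay higher at E12.5, as did 19.2% of all listed genes. Ifitm5 lay lower without overlap in both, as did 6.87%. Of the members that lay higher, Sp7 and Pthlh reached the minimum of 3 RPKM in a group mean only at E12.5. Over the libraries the log2 values of Mef2c and Pthlh had a Pearson r of 0.958, those of Sp7 and Mef2c 0.863 and those of Sp7 and Pthlh 0.797. These were the highest of all pairs of members, and the lowest was -0.754, for Mef2c and Ifitm5. All are over points that share age and genotype.

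Of the other genes of the PTHrP and hedgehog axis, 22 were listed. With age 3 rose and 3 fell in controls, where 16.5% and 5.19% of all genes did. In mutants 1 rose and 4 fell, where 14.5% and 5.23% of all genes did. The median log2 difference was 0.01 in controls and -0.08 in mutants, against 0.06 over all genes in both. Ihh, the other partner of the PTHrP loop, was not listed. Nkx3-2, a repressor of chondrocyte maturation, rose by 1.70 (limma adjusted p = 0.0413) in controls and 1.79 (limma adjusted p = 0.0288) in mutants. Shh, the limb's posterior hedgehog ligand, fell by 2.06 (limma adjusted p = 0.0112) and 1.56 (limma adjusted p = 0.0323). Hhip, which binds hedgehog ligands, rose by 0.68 in controls (limma adjusted p = 0.0107). Gli1, a hedgehog target, fell by 0.39 in mutants (limma adjusted p = 0.0124), and Ptch1 stood at 28.1 to 37.2 RPKM in the group means. No gene of the list was called between mutants and controls at either age.

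Alpl (ENSMUSG00000028766, chromosome 4, 137741733 to 137796384, minus strand) encodes tissue-nonspecific alkaline phosphatase, which frees phosphate for mineral. Controls of E11.5 were at 3.09, 2.91 and 2.96 RPKM, and Sox9null at 3.52, 3.52, 3.92 and 3.88. Each Sox9null library lay above each control, as for 1.41% of all genes, and the 2 libraries of each set within Sox9null stood close together. Controls of E12.5 were at 3.03, 3.80 and 2.93 RPKM, and Sox9cKO at 2.77, 3.53 and 3.29, and these groups overlapped. The E11.5 difference was 0.24 (SE 0.0966, 95% interval 0.03 to 0.45, limma unadjusted p = 0.0286), with an adjusted p of 1.00 (0.253 to 1.00 over the alternatives). It was 0.28 within the set of 4 and 0.21 within the set of 3. At E12.5 it was -0.02 (95% interval -0.24 to 0.21). Between ages the values were 0.09 in controls (limma adjusted p = 0.564) and -0.17 in mutants (limma adjusted p = 0.223). The summed level of 14 listed erythroid genes overlapped between the E11.5 groups, at 846.3 to 951.3 RPKM in the E11.5 controls and 867.0 to 1499 in Sox9null, highest in Sox9null 3 and 4, where Alpl was highest too. At E12.5 the erythroid sum was 647.0 to 703.8 RPKM in controls and 897.1 to 1107 in Sox9cKO, while Alpl overlapped. Of the 14 genes 2 were called higher in Sox9cKO, where 0.194% of all genes were called in either direction. Sox9cKO 1 had the highest erythroid sum of its age and the lowest Alpl. No erythroid gene of the list was at 0, 4 of its 18 symbols were not listed, and its part was not tested.

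Ifitm5 (ENSMUSG00000025489, chromosome 7, 140948958 to 140950291, minus strand) encodes a membrane protein of mineralizing osteoblasts. At E11.5 it stood at 5.84, 6.47 and 7.41 RPKM in controls, while Sox9null had 7.47, 7.42, 7.53 and 6.76. At E12.5 it stood at 4.86, 4.39 and 5.83 RPKM in controls, while Sox9cKO had 5.84, 5.17 and 5.41. Values were thus highest at the earlier age, although E12.5 control 3 lay just under the lowest E11.5 control. With age Ifitm5 fell by 0.33 (SE 0.102, limma adjusted p = 0.0374) in controls and 0.36 (SE 0.0952, limma adjusted p = 0.0238) in mutants. The fall in controls passed in 14 of 22 alternatives. It was lost without E11.5 control 2 or 3, E12.5 control 1 or 2, or Sox9cKO 3, with sex as a term, with library set and sex as terms, and with only the compared groups, at limma adjusted p of 0.0515 to 0.134. The fall in mutants passed in 18 of 22 and was lost without Sox9null 2 or any 1 of the Sox9cKO libraries, at 0.0518 to 0.103. Mutants against controls differed by 0.14 (95% interval -0.07 to 0.34) at E11.5 and 0.11 (95% interval -0.11 to 0.33) at E12.5. The most similar profiles were Cdc26 (r 0.934), Tra2b (0.914) and Tia1 (0.912), a cell division gene and a pair of RNA-binding protein genes. The Ifitm5 model overlaps the predicted gene Gm45717 on the same strand, and it belongs to a family of similar genes, so its level is uncertain.

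Spp1 (ENSMUSG00000029304, chromosome 5, 104435118 to 104441050, plus strand) encodes osteopontin, a phosphoprotein of bone matrix that macrophages and other cells also make. Controls ranged over 5.87, 6.08 and 8.85 RPKM at E11.5 and over 5.50, 9.44 and 8.67 at E12.5. Mutants were at 6.02, 4.14, 6.30 and 5.88 RPKM as Sox9null and at 11.0, 10.5 and 8.68 as Sox9cKO. The controls of the 2 ages overlapped, while each Sox9cKO library lay above each Sox9null library, as for 23.7% of all genes. In mutants Spp1 rose by 0.75 (SE 0.186, limma adjusted p = 0.0182), from 5.59 ± 0.977 (SD, n = 4) to 10.1 ± 1.22 RPKM (SD, n = 3). The call was lost without Sox9cKO 1 (0.0737) or Sox9cKO 2 (0.0775), each a limma adjusted p. In controls the difference was 0.15 (95% interval -0.28 to 0.59, limma adjusted p = 0.612).

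Against controls, Spp1 in mutants differed by -0.26 (95% interval -0.67 to 0.14) at E11.5 and 0.34 (95% interval -0.09 to 0.78) at E12.5. These effects differed from each other by 0.60 (95% interval 0.01 to 1.20, limma unadjusted p = 0.0475), with an adjusted p of 1.00 (0.544 to 1.00 over the alternatives). Macrophage and leukocyte genes, 13 listed of 18, rose with age in 10 cases in controls and 8 in mutants, against 16.5% and 14.5% of all genes. Emr1 of this list was under 3 RPKM in every E11.5 library and was kept through E12.5. A rise of Emr1 was thus partly set by the minimum of 3 RPKM. The macrophage and leukocyte sum was 55.3 to 67.5 RPKM in the E11.5 controls, 51.0 to 74.8 in Sox9null, 95.5 to 112.8 in the E12.5 controls and 78.6 to 122.5 in Sox9cKO. No listed gene was at 0, and Adgre1, Ptprc, Aif1 and Spi1 were not listed. Within the groups the orders differed: the lowest macrophage sum came with the lowest Spp1 in Sox9cKO 3, but with the highest Spp1 in E12.5 control 2. The part of these cells was not tested. The Spp1 model overlaps the unclassified transcript Gm42793 on the same strand.

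The bases before the first exon of Spp1 (chr5:104434861-104435110, plus strand, RefSeq table of GRCm38.p6) hold the only RUNX letters among the member windows, and the capitals mark TATAAA and ACCACA, the reverse complement of TGTGGT:
Spp1: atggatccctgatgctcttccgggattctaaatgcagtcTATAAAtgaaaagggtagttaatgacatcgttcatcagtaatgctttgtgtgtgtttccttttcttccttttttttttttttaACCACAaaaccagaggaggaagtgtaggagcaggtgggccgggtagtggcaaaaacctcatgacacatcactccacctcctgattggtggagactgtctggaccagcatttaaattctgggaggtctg

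The letters of 4 motifs were sought on both strands of the 250 bases before each start in that table, in 32851 windows of all genes and 12 windows of 6 members. Sp7 had no entry. TGTGGT, bound by RUNX factors, was in 1 member window, that of Spp1 shown above, and in 14.05% of all windows. The MEF2 consensus was in 1 member window, of Pth1r, and in 2.92% of all, and it was not in the Mef2c window shown above. GGGCGG, the GC box read by SP and KLF proteins, was in 6 of 12 and in 32.7% of all, and TATAAA in 4 of 12 and 12.4%. The MEF2 consensus and TATAAA share letters and can overlap. These are matches of letters only, and a window without a match says nothing about binding.

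The osteoblast and perichondrium list described the tissue around the members. Of its 26 symbols 16 were listed, and in controls 8 rose with age and 0 fell, where 16.5% and 5.19% of all genes did. The median log2 difference was 0.36 against 0.06 over all genes. The largest rises were Ogn, a small leucine-rich matrix proteoglycan (1.74, limma adjusted p = 0.00791), Postn, the matrix protein periostin (1.31, limma adjusted p = 0.00634), Bmp2, a bone morphogenetic protein (0.73, limma adjusted p = 0.0108), and Enpp1, which makes pyrophosphate (0.66, limma adjusted p = 0.00756). In mutants 4 rose and 1 fell, where 14.5% and 5.23% of all genes did. Ogn rose by 1.15 (limma adjusted p = 0.0405), Postn by 1.12 (limma adjusted p = 0.0129) and Bmp2 by 0.68 (limma adjusted p = 0.0149), while Col1a2, a type I collagen chain, fell by 0.27 (limma adjusted p = 0.0373). Col1a1 stood at 29.2 to 34.5 RPKM in the group means and Dlx5, an osteoblast homeobox gene, at 4.47 to 6.31. Between mutants and controls no gene of the list was called, with medians of 0.01 at E11.5 and -0.15 at E12.5.

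Of 12 hypertrophy symbols besides the members, 3 were listed. Sgms2 rose in controls by 0.67 (limma adjusted p = 0.00811) and in mutants by 0.50 (limma adjusted p = 0.0257). Vegfa, the vessel growth factor that hypertrophic cells release but many cells make, rose in controls by 0.25 (limma adjusted p = 0.0193).

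Of 25 listed RUNX partners and regulators, 3 rose and 2 fell with age in controls, where 16.5% and 5.19% of all genes did. In mutants 1 rose and 2 fell, where 14.5% and 5.23% of all genes did. Cbfb, the shared partner subunit of RUNX proteins, stood at 52.8 to 56.0 RPKM in the group means. Runx1, the family member of blood and early cartilage, was at 3.09 ± 1.19 and 2.31 ± 0.739 RPKM at E11.5 and 4.06 ± 0.506 and 2.79 ± 0.317 at E12.5 (SD, n = 3, 4, 3 and 3), and was not called in any comparison. Zbtb16, a zinc finger factor gene, fell by 1.28 (limma adjusted p = 0.00280) in controls and 0.87 (limma adjusted p = 0.0174) in mutants. Maf, which works with RUNX2 in cartilage, rose by 0.79 (limma adjusted p = 0.0269) in controls. The related coactivator genes Wwtr1 and Yap1 went opposite ways in controls: Wwtr1 rose by 0.32 (limma adjusted p = 0.00162) and Yap1 fell by 0.26 (limma adjusted p = 0.00208). In neither this list nor the hypertrophy and MEF2 lists was a gene called between mutants and controls.

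**Figure D4:**
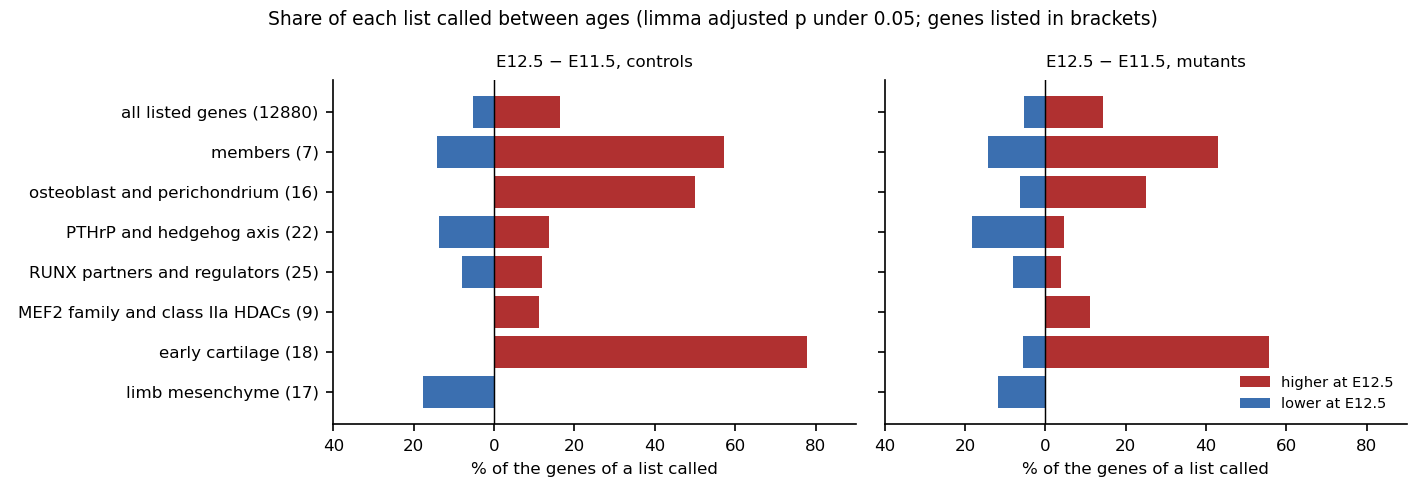
Percent of the listed genes of each list called higher (red, right) or lower (blue, left) at E12.5 than at E11.5 in controls and in mutants, with the number of listed genes in brackets. In controls 4 of the 7 members and 8 of the 16 osteoblast and perichondrium genes were higher, against 16.5% of all listed genes. Of these members, Sp7 and Pthlh reached the minimum of 3 RPKM in a group mean only at E12.5. Cytl1 and Matn1 of the early cartilage list reached it only in the E12.5 controls.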

How the data were processed

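Limb bud RNA of 13 embryos in 4 groups was sequenced. Per the labels, RNA came from an RNeasy Mini Kit and libraries followed Illumina's standard protocol, and the submitters' processing notes name CASAVA 1.8 and mm10. The values are the authors' normalized RPKM per gene and library, per the file headers, with genes kept at a group mean of at least 3. The deposited p-value per gene is adjusted over the 4 groups. No source used here names the aligner, the counting, the use of strand or the scaling between libraries.

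The analysis used limma 3.58.1 (R 4.3.3) on log2(RPKM + 1), trend and robust, with 4 group means over 13 libraries and 9 residual degrees of freedom. Two-sided p-values were adjusted (Benjamini-Hochberg, 12880 genes) in each of 6 comparisons and called under 0.05. The filter (1 RPKM in 3 libraries) removed 0 genes. The script was tested on simulated data. No pair of libraries was identical. Intervals are at 95%. Coordinates came from GENCODE M21. Y-linked genes gave the sex term. The library set term came from the likeness of these same libraries. It placed all E12.5 libraries with the E11.5 set of 4, so age comparisons with it are against the level of that set. There were 22 alternatives: pseudocount 0.1, a filter at 5 RPKM, quantile normalization, limma without trend and robust, the replicate number, library set, sex, library set with sex (added after seeing the data), only the compared groups, and each library left out.

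The members and lists were chosen with earlier results of these data known. Genes named from a list are at most 4 of those called in a comparison, by size, plus Cbfb, Runx1, Mef2a, Mef2d, Ptch1, Gli1, Dlx5, Col1a1 and Sox9. Wwtr1, Yap1 and Erg were named by these rules or as like genes (the 3 highest Pearson r per member). Of the genes these rules name, 1 is not reported here.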

Additional observations from a re-analysis of the deposited data

Results flagged for a closer look

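In the Sox9null group at E11.5, Ifitm5 had 7.47, 7.42 and 7.53 RPKM in libraries 1 to 3 and 6.76 in library 4. Library 4 stood apart from the others: its gap to the nearest value was 0.860 of the whole range of the group. Chance alone sets apart about 1 in 20 such groups. Each of the 7 members was looked at in this way in Sox9null, the only group of 4, and only Ifitm5 was flagged.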

How the results depend on the processing

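Of 897 member values under the alternatives, 851 kept their direction and side of the threshold, 18 lost a call, 5 gained one and 23 changed sign, none of the last with a call. Leaving out a library outside the compared groups cannot change a difference, only its spread and adjusted p. Part of the 851, and of the 22 alternatives below, thus had their direction fixed in advance. The age calls of Mef2c in both genotypes, and of Pthlh and Pth1r in controls, held under all 22 alternatives. The cause of the changes below was not tested.

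Members called numbered 1 in place of 0 at E12.5 and in the mean effect with library set and sex as terms (Mef2c), and 1 in the mean effect with sex as a term (Mef2c). With 1 library left out they ranged from 0 to 1 at E12.5 and in the mean effect (Sp7, without E12.5 control 2), from 3 to 5 between ages in controls and from 1 to 4 in mutants. The calls of Mef2c with a sex term lean in part on Sox9cKO 3, the only E12.5 mutant with Y-linked reads.

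Genes called over the whole table were 7 at E11.5, and 41 with library set as a term, 45 with library set and sex as terms, 0 with only the compared groups, and 2 to 8 with 1 library left out. At E12.5 they were 25, and 57 after quantile normalization, 105 with library set, 156 with library set and sex, and 9 to 45 with 1 library left out. For the difference of effects they were 4, and 2 with pseudocount 0.1, with the filter at 5 RPKM and with library set and sex, and 0 to 10 with 1 library left out. Between ages they were 2794 in controls, 5745 with library set, 5756 with library set and sex and 1379 to 3374 with 1 library left out. In mutants they were 2539, 4990 with library set, 4806 with library set and sex, 922 with only the compared groups and 707 to 2976 with 1 library left out. For the mean effect they were 65, 258 with library set, 317 with library set and sex and 22 to 76 with 1 library left out. The library set term placed all E12.5 libraries with the E11.5 set of 4, so its counts between ages are against the level of that set.

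With the replicate block the genes called were 14 at E12.5, 1 for the difference of effects and 16 for the mean effect, and no member changed its call. The numbers do not pair the samples: same-numbered libraries had correlations of deviations of -0.435, 0.635 and 0.441 at E11.5 and 0.169, 0.0266 and -0.117 at E12.5.

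Signs changed as follows, all without a call. Pthlh at E11.5 was 0.00472 after quantile normalization. Alpl at E12.5 was 0.049998 after quantile normalization, 0.0260 with sex and 0.00787 with library set and sex. Ifitm5 in the difference of effects was 0.0524 after quantile normalization. Between ages in controls, quantile normalization gave -0.176 for Alpl and -0.0164 for Spp1. The mean effect of Spp1 was -0.0216 with library set and sex. With 1 library left out, the ranges were -0.223 to 0.0573 for Pthlh at E11.5, -0.689 to 0.0152 for Pthlh and -0.0754 to 0.0718 for Alpl at E12.5. For the difference of effects they were -0.213 to 0.0715 for Mef2c, -0.614 to 0.0908 for Pthlh and -0.106 to 0.0662 for Ifitm5. For Alpl between ages in controls the range was -0.000698 to 0.142, and for the mean effect -0.0127 to 0.0450 for Pth1r and -0.0651 to 0.123 for Spp1.

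Absolute depth is unknown, and Pthlh at E11.5 is near the lowest values in the table, so its fold change is imprecise. Sp7 and Alpl, at about 3 RPKM, were not run under the filter at 5 RPKM where they did not pass it, nor Pthlh at E11.5 with only the compared groups, where it did not reach the 1 RPKM filter. Groups of 3 and 4 embryos limit each comparison.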

Other observations

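The endothelial and osteoclast lists held a few genes that changed with age. Of 4 listed osteoclast genes, Ctsk, the bone-resorbing protease cathepsin K, was the one that rose, by 0.92 in controls (limma adjusted p = 0.0190) and 0.78 in mutants (limma adjusted p = 0.0319), while Mmp9, Calcr and Tnfrsf11a were not among the listed genes. Over all genes 16.5% rose in controls and 14.5% in mutants. The Ctsk group means reached the minimum of 3 RPKM only at E12.5, so a rise was partly set by that rule. Tek, the angiopoietin receptor gene, rose by 0.36 in controls (limma adjusted p = 0.00881) and 0.37 in mutants (limma adjusted p = 0.00845). Of 17 listed limb mesenchyme genes, 3 fell in controls and 2 in mutants, where 5.19% and 5.23% of all genes did. Hoxd11, a distal patterning gene, fell by 0.57 (limma adjusted p = 0.00276) and 0.60 (limma adjusted p = 0.00317).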
